A study of Mus musculus with 10 samples.

Results

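The 31 genes described here encode soluble hydrolases of the lysosome, the activator proteins some of them need, and proteins of the lysosomal membrane. They were listed by name, with cathepsins and proton pump subunits left out, and were read in microglia of wild-type (WT) and Trem2-/- mice fed the myelin toxin cuprizone. All 31 were on the array and all 31 passed the filter on low signal, among 19749 genes named by probes of a single gene and 10792 that passed. Arranged by role they were 10 hydrolases and activators of sphingolipid breakdown, 6 hydrolases of glycans and glycogen, 3 proteins of cholesterol handling, 4 proteins of ceroid storage disease and 8 membrane proteins.

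Microglia take up myelin debris and digest it in lysosomes. Each hydrolase removes a particular sugar, sulfate, fatty acid or peptide, and the loss of a single enzyme in people causes a storage disease, many of which affect the white matter. Galc and Arsa act on galactosylceramide and sulfatide, the sphingolipids typical of myelin, Lipa frees cholesterol from its esters, and Npc1 and Npc2 carry the cholesterol out. Trem2 is a surface receptor of microglia that binds lipids.

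RNA was measured on 10 arrays of sorted microglia. All mice were males on the C57BL/6 strain with a labelled age of 8 to 12 weeks, and each genotype had 5 arrays. The arrays of 12 weeks of feeding carry the same age, so it cannot be the age at collection in every array. In each genotype 1 array was from control mice without cuprizone, 1 from mice on food with 0.2% cuprizone for 4 weeks, 1 from mice on it for 12 weeks, and 2 from mice that had then eaten normal food for 2 weeks, 1 after each feeding time; the last are called recovery. The control groups therefore held 1 array and the cuprizone and recovery groups 2 each. Nothing in the labels says which animals or pools an array holds. The p-values therefore measure only the spread between these arrays, part of which may be technical. In the fit of 6 groups this is the spread between the 4-week and the 12-week array of a group. It therefore includes any effect of feeding time. The sources used here give neither the deleted stretch of Trem2 nor the sort markers. The Trem2-/- cuprizone array titled 12 weeks carries a time label of 4 weeks, and was counted as 12 weeks.

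Values are log2 of the deposited intensity, and differences are on the log2 scale. Array medians lay between 37.6 and 39.3 in linear intensity. The probe for Trem2 read 10.66 to 10.81 in the 5 WT arrays and 7.26 to 7.85 in the 5 Trem2-/- arrays. All 9 microglia markers with a probe were above the table's median in every array, and their summed intensity ran from 20740.5 to 29293.5. The submitters' sample numbers formed 2 runs, the first with the 6 control and 4-week arrays and the second with the 4 arrays titled 12 weeks, and the first principal component (37.1% of the variance) split the arrays the same way. Feeding time, this run and any difference in age at collection cannot be told apart. Markers of neutrophils summed to 4569.1 to 13383.0 in the first run and 234.2 to 389.0 in the second, over 11 genes. Markers of border macrophages, over 10 genes, summed to 1848.9 in the WT control, 1318.1 in the Trem2-/- control, 3934.3 to 4652.6 in the 4-week arrays and 1846.4 to 2113.6 in the 12-week arrays. In sorted cells measured in bulk, a change in RNA per cell and a change in the share of cells of a type cannot be told apart.

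Many lysosomal genes carry in their promoter a copy of the E-box bound by the transcription factor TFEB and its relatives. Promoter windows from RefSeq (GRCm38.p6, 250 bases before to 50 after the start) were found for 29 of the 31 genes. The letters TCACGTG, on either strand, stood in 9 of the 29 (31%), against 4.29% of all 27025 genes with a window and 7.2% of the 8686 tested genes with one. The shorter CACGTG, which TCACGTG contains, stood in the same 9 genes (31%), against 8.09% and 12.0%. The longer palindrome TCACGTGA, which contains both, stood in 3 genes (10.3%), against 1.12% and 2.31%. The 9 genes were Arsa, Cln3, Gaa, Gla, Glb1, Lamp1, Mcoln1, Naglu and Sgsh. Gla, Glb1, Gaa and Cln3 had the lowest Trem2-/- minus WT differences on cuprizone, and all 4 hold the motif. The next lowest, Galc at -0.39 and Gm2a at -0.39, do not hold it in their windows. None of these differences had an adjusted p below 0.05 (limma). Windows of the first 4 genes, picked after the values were seen, are shown. Each is written 5′ to 3′ on the gene's strand and ends before the start site, with the motif in capitals. They lie at chrX:134601206-134601253 and chrX:134601173-134601220 (minus strand, both Gla), chr9:114401009-114401055 (plus, Glb1), chr11:119267802-119267848 (plus, Gaa) and chr7:126583331-126583378 (minus, Cln3).
Gla upstream copy: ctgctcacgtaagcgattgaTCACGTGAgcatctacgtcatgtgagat
Gla downstream copy: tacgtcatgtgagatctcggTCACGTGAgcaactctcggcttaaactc
Glb1: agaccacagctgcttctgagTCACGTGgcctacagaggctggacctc
Gaa: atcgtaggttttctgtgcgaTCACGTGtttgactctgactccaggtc
Cln3: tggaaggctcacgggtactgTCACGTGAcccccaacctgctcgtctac
These letters are a description of the window and were not shown to be a site in use. Absence of the letters from the other 20 windows says only that they are not in those bases.

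**Figure D1:**
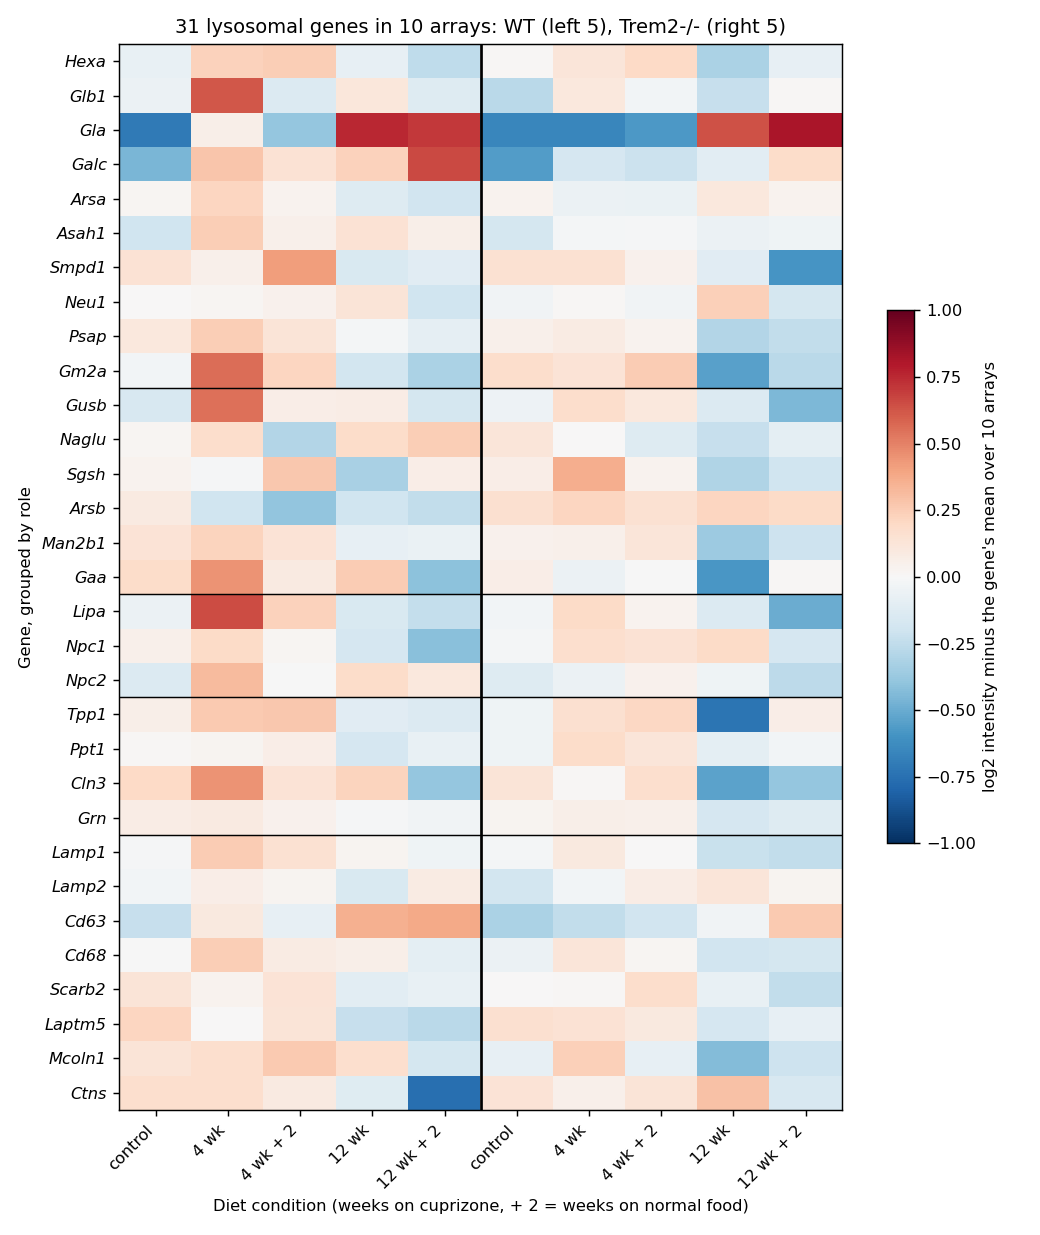
Each cell shows the log2 intensity of a gene in an array minus that gene's mean over the 10 arrays (colour scale from -1 to 1); rows are the 31 genes grouped by role and columns are the 5 WT and the 5 Trem2-/- arrays by diet condition. The WT array of 4 weeks of cuprizone holds the highest value of 14 genes and the Trem2-/- array of 12 weeks of cuprizone the lowest value of 10.

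The genes varied across the arrays about as much as all genes tested did. The median range from the lowest to the highest array was 0.61 over the 31 genes and 0.68 over all genes tested. These ranges were not matched for level, and the median of the mean levels was 9.56 for the 31 and 6.77 for all genes tested. The WT array of 4 weeks of cuprizone was the highest of the 10 for 14 of the 31 genes and the lowest for 0, while among all genes tested it was the highest for 15.8%. The Trem2-/- array of 12 weeks of cuprizone was the lowest for 10 of the 31, against 10.6% of all genes tested.

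For the other members the lowest and highest of the 10 arrays were as follows. Among the sphingolipid genes Asah1 ran from 9.44 to 9.88, Psap from 10.95 to 11.49 and Neu1 from 6.66 to 7.09. Arsa, the arylsulfatase that acts on sulfatide, ran from 5.11 to 5.51, close to the table's median of 5.27, where differences can be compressed. Naglu ran from 6.89 to 7.43, Man2b1 from 10.33 to 10.92 and Npc2 from 10.95 to 11.53. Among the ceroid disease genes Ppt1, which removes palmitate from proteins, ran from 10.03 to 10.38 and Grn, the progranulin precursor of granulins, from 11.74 to 11.99. Of the membrane proteins Lamp1 and Lamp2, the main glycoproteins of the lysosomal membrane, ran from 10.88 to 11.38 and from 10.75 to 11.05. Cd68 ran from 11.42 to 11.86, Cd63 from 11.11 to 11.81, Scarb2, which carries glucocerebrosidase to lysosomes, from 9.68 to 10.10, and Mcoln1, a calcium channel, from 7.53 to 8.22. Signals of different probes are not comparable as transcript levels, so these ranges are read within a gene.

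In WT microglia the 31 genes were compared between cuprizone and control. On cuprizone 20 of the 31 estimates were above 0 and their median was 0.07, against 51.3% and a median of 0.01 for all genes tested. None of the 31 passed the test (limma, adjusted p below 0.05 over 10792 genes), where 0.148% of all genes tested passed, and 1 of the 31 had an unadjusted p below 0.05, against 471 of all genes tested. The 10 sphingolipid genes had 9 estimates above 0 (median 0.18), the 6 glycan hydrolases 3, the 3 cholesterol genes 2, the 4 ceroid disease genes 2 and the 8 membrane proteins 4.

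Gla, the alpha-galactosidase that removes the terminal sugar of globotriaosylceramide, had the highest estimate without a block for feeding time. In WT it read 7.56 in control, 8.32 at 4 weeks, 7.88 in recovery after 4 weeks, 9.01 at 12 weeks and 8.97 in recovery after 12 weeks. In the same order of conditions, used for every gene that follows, Trem2-/- read 7.61, 7.61, 7.69, 8.90 and 9.08. Only the 12-week arrays stood clear of the rest in both genotypes, and at 4 weeks the WT array was 0.72 above the Trem2-/- array. The WT difference between cuprizone and control was 1.11 ± 0.72 (SE), adjusted p = 0.998. With titled feeding time as a block it was 0.55 (adjusted p = 0.549), below Gusb at 0.67 and Galc at 0.59.

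Galc, the galactosylceramidase that degrades the main glycolipid of myelin, read 6.25, 6.98, 6.85, 6.93 and 7.36 in WT and 6.14, 6.53, 6.49, 6.60 and 6.88 in Trem2-/-. In both genotypes the control array was the lowest of the 5, and in every condition WT was above Trem2-/-. The WT difference between cuprizone and control was 0.71 ± 0.28 (SE), adjusted p = 0.998, and it was the member with an unadjusted p below 0.05 (0.0354). In Trem2-/- it was 0.42 ± 0.28, adjusted p = 0.999.

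Gusb, the beta-glucuronidase, read 8.19, 8.90, 8.42, 8.43 and 8.18 in WT and 8.30, 8.53, 8.46, 8.22 and 7.90 in Trem2-/-. The 4-week array was the highest in each genotype and the 12-week recovery array the lowest. The WT difference was 0.47 ± 0.32, adjusted p = 0.998. Cd63, a tetraspanin of late endosomes, followed with 0.45, then Glb1 with 0.43, Asah1, the acid ceramidase, with 0.39, and Npc2, a soluble cholesterol carrier, with 0.39.

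At the other end stood Laptm5, a lysosomal membrane protein of haematopoietic cells, Arsb and Sgsh. Laptm5 read 12.94, 12.72, 12.85, 12.49 and 12.46 in WT and 12.88, 12.87, 12.82, 12.56 and 12.64 in Trem2-/-. Both genotypes were lower in the 12-week arrays than in all others, and the WT difference between cuprizone and control was -0.33 ± 0.27, adjusted p = 0.998. Sgsh, which removes sulfate from heparan sulfate, read 6.35, 6.30, 6.58, 5.99 and 6.38 in WT and 6.38, 6.68, 6.35, 6.01 and 6.11 in Trem2-/-, with a WT difference of -0.20 ± 0.32, adjusted p = 0.998. Both WT cuprizone arrays were below the WT control and both WT recovery arrays, and in Trem2-/- the 2 cuprizone arrays lay on either side of the control.

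The WT cuprizone group spans both runs while both controls belong to the first, and the 2 arrays differed. The 4-week WT array was above the control for 25 of the 31 genes, by a median of 0.20, with all genes tested at 0.03. The 12-week WT array was above it for 14, by a median of -0.09. With titled feeding time as a block, controls placed with 4 weeks, the median over the 31 genes was 0.19 with 26 estimates above 0, and 0 of the 31 passed, where 0.973% of all genes tested did; the smallest adjusted p was 0.265, for Gusb at 0.67. Without the 4-week WT array the median of the 31 was -0.09. Border macrophage markers were 4652.6 in that array against 1848.9 in the WT control, and their part in its values was not tested.

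**Figure D2:**
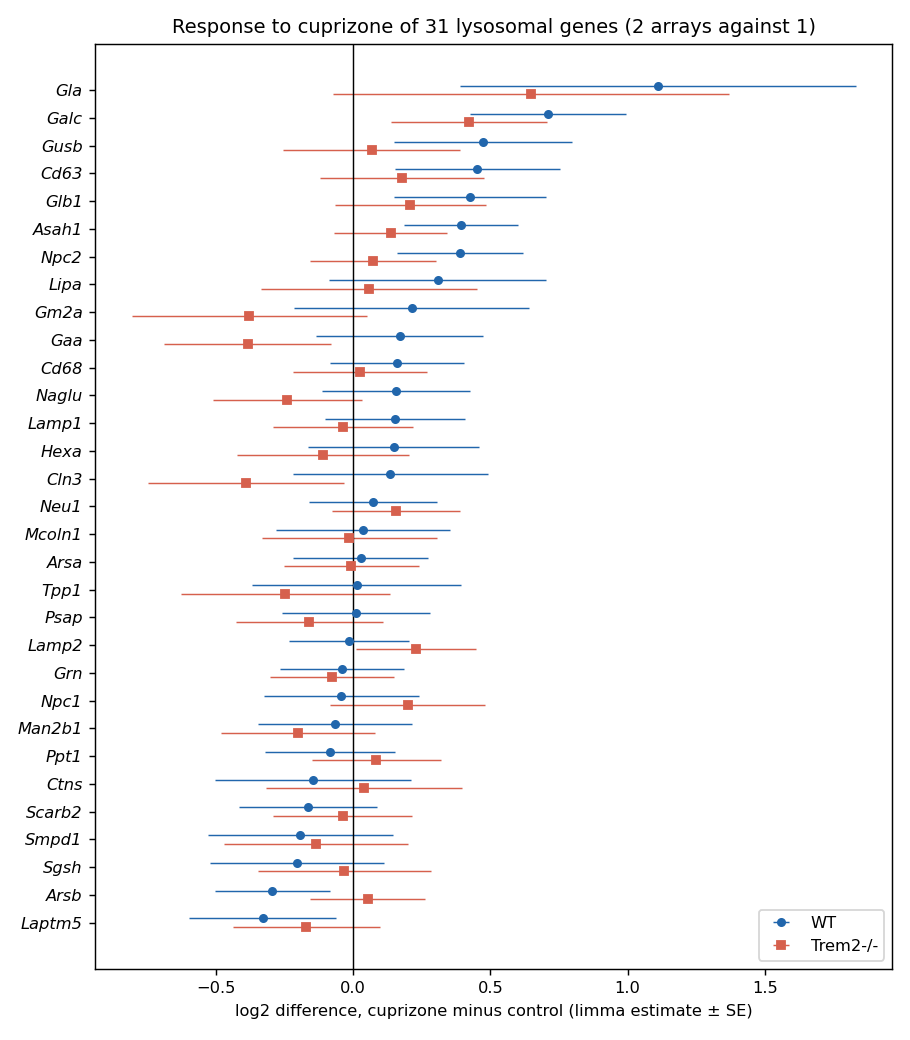
Points are limma estimates of cuprizone minus control on the log2 scale for each of the 31 genes, with bars of 1 SE, for WT (circles) and Trem2-/- (squares); each compares 2 arrays with 1. Gla and Galc are highest in both genotypes (1.11 and 0.71 in WT, 0.65 and 0.42 in Trem2-/-), and no estimate of either genotype passed the adjusted threshold.

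In Trem2-/- microglia the same comparison gave 15 of 31 estimates above 0, with a median of -0.01. None passed, and 0% of all genes tested passed; at an unadjusted p below 0.05 the counts were 0 of the 31 and 100 of all genes tested. Gla at 0.65 and Galc at 0.42 were again the highest, and Cln3 at -0.39, Gaa at -0.38 and Gm2a at -0.38 the lowest. That order rested in part on the array of 12 weeks, which was set against a control of the other run. With the feeding-time block Gla was at 0.09, Cln3 at -0.16 and Gm2a at -0.07, while Galc was at 0.31 and Gaa at -0.23. Npc1 at 0.33 and Lipa at 0.32 were then the highest. In the 4-week array minus the control Galc at 0.39 was the highest and Gaa at -0.13 the lowest. The blocked median was 0.09 with 22 above 0; 0 of the 31 and 0.12% of all genes passed. At 4 weeks, within the first run, the Trem2-/- array was above its control for 23 of 31 genes, by a median of 0.07, and the differences ran from -0.13 to 0.39. In WT the matching range was -0.30 to 0.77.

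The responses of the genotypes were then compared directly. The Trem2-/- response was the lower for 21 of the 31 genes, with a median difference of -0.17, and of -0.03 without the Trem2-/- cuprizone array of 12 weeks. None of the 31 passed, where 0.00927% of all genes tested did, and the smallest adjusted p among the 31 was 1; at an unadjusted p below 0.05 the counts were 0 of the 31 and 159 of all genes tested. The 2 responses share no array, but each rests on a single control.

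**Figure D3:**
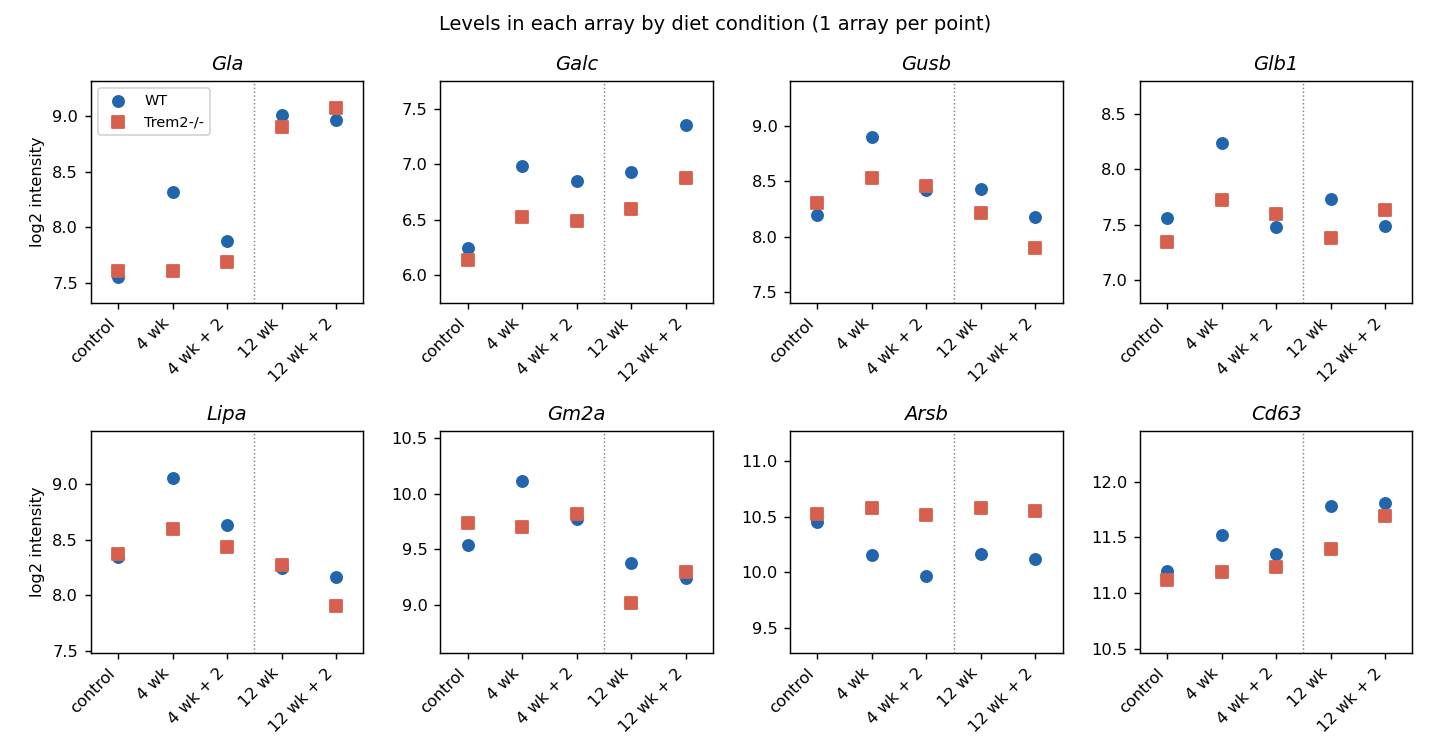
Each point is the log2 intensity in a single array, WT as circles and Trem2-/- as squares, by diet condition for 8 genes; the dotted line parts the 2 runs of sample numbers and every axis spans the same log2 width. Gla is at 8.90 or above in the 4 arrays of 12 weeks and at 8.32 or below elsewhere. Arsb, by its brightest probe, is at 10.52 or above in every Trem2-/- array and at 10.45 or below in every WT array. On a second probe of Arsb the genotypes overlap.

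On cuprizone itself Trem2-/- was compared with WT over 2 arrays each. The estimate was below 0 for 22 of the 31 genes, with a median of -0.22, against 0.00 for all genes tested, 50.2% of which were above 0. None of the 31 passed, where 0.334% of all genes tested did, and 2 had an unadjusted p below 0.05, against 482 of all genes tested. With the feeding-time block 0 of the 31 and 1.42% of all genes passed. By role, 8 of 10 sphingolipid genes, 4 of 6 glycan hydrolases, 2 of 3 cholesterol genes, 3 of 4 ceroid disease genes and 5 of 8 membrane proteins were below 0. At 4 weeks the Trem2-/- array was the lower for 25 of the 31 genes, with a median difference of -0.16, and at 12 weeks for 19, with a median of -0.21. Without the 4-week WT array the median was -0.06, and without the 12-week Trem2-/- array it was -0.03.

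Gaa, the acid alpha-glucosidase that digests glycogen, had the lowest estimate. It read 7.60, 7.87, 7.51, 7.68 and 7.01 in WT and 7.48, 7.36, 7.41, 6.84 and 7.43 in Trem2-/-. On cuprizone both WT arrays were above both Trem2-/- arrays, while in recovery after 12 weeks WT was the lower. The difference on cuprizone was -0.67 ± 0.25 (SE), adjusted p = 0.952; with the feeding-time block its adjusted p was 0.141. Leaving out the Trem2-/- array of 12 weeks moved it to -0.42.

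Cln3, a lysosomal membrane protein lost in a childhood ceroid lipofuscinosis, read 7.94, 8.19, 7.88, 7.97 and 7.36 in WT and 7.88, 7.76, 7.91, 7.21 and 7.36 in Trem2-/-. Here too both WT cuprizone arrays were the higher, and the recovery arrays of the genotypes differed by 0.03 after 4 weeks and by 0.00 after 12. The difference on cuprizone was -0.60 ± 0.29, adjusted p = 1, and 0.145 with the block. Leaving out the Trem2-/- array of 12 weeks moved it to -0.32.

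Glb1, the beta-galactosidase that acts on gangliosides, read 7.56, 8.24, 7.48, 7.73 and 7.49 in WT and 7.35, 7.73, 7.59, 7.39 and 7.63 in Trem2-/-. WT was the higher in control and on cuprizone and the lower in both recovery arrays. The difference on cuprizone was -0.43 ± 0.22, adjusted p = 1. Over the 9 genes with TCACGTG the median difference on cuprizone was -0.30, with 8 below 0, and over the 20 genes without it -0.18, with 13 below 0. Among all tested genes the medians with and without the letters were -0.01 and 0.00. In recovery the genotype medians of the 9 and the 20 genes were -0.04 and -0.06, and between feeding times both were -0.25. The difference between the 9 and the 20 was not tested.

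The members above 0 on cuprizone were led by Arsb at 0.42 ± 0.17 (adjusted p = 1, and 0.313 with the block), Sgsh at 0.20 and Npc1 at 0.17. Npc1, the membrane protein that exports cholesterol, read 8.83, 8.97, 8.80, 8.61 and 8.37 in WT and 8.77, 8.95, 8.93, 8.98 and 8.62 in Trem2-/-. The genotypes overlapped, and the Trem2-/- array was the higher in 3 of 5 conditions.

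**Figure D4:**
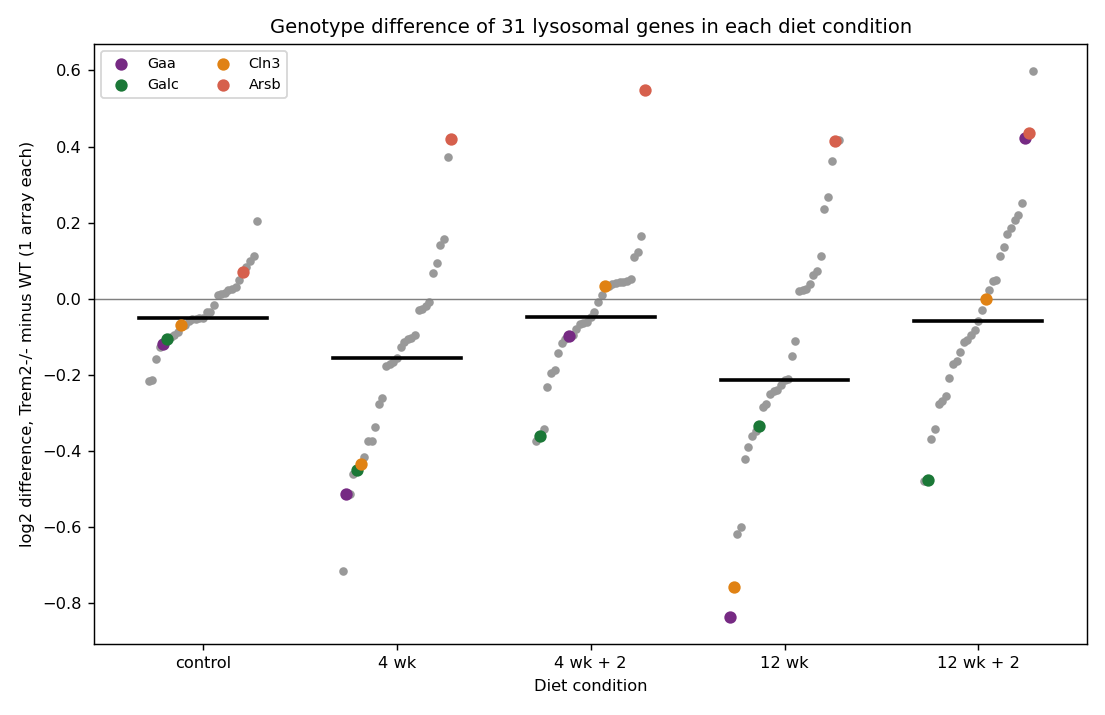
Each point is the Trem2-/- minus WT difference (log2) of a gene between 2 single arrays of the same diet condition, sorted within a condition, and black bars are medians of the 31 genes. The medians are -0.05 in control, -0.16 at 4 weeks, -0.05 in recovery after 4 weeks, -0.21 at 12 weeks and -0.06 in recovery after 12 weeks; Arsb is above 0 and Galc below 0 in all 5.

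Trem2-/- and WT were also compared over all 5 diet conditions, 5 arrays each, with a block for each condition. None of the 31 passed, where 0.259% of all genes tested did; 3 of the 31 and 1162 of all genes tested had an unadjusted p below 0.05. The median over the 31 genes was -0.13 with 8 above 0. With the brightest probe per gene, Arsb was the 1 member whose genotypes did not overlap across the 10 arrays, where 1% of all genes tested did not.

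Arsb, the arylsulfatase that removes sulfate from dermatan and chondroitin sulfates, was the highest. It read 10.45, 10.16, 9.97, 10.16 and 10.12 in WT and 10.52, 10.58, 10.52, 10.58 and 10.55 in Trem2-/-. The control arrays differed by 0.07, and the other conditions by 0.42, 0.55, 0.41 and 0.43, Trem2-/- higher in 5 of 5. The difference over conditions was 0.38 ± 0.10 (SE), adjusted p = 0.184. A second, dimmer probe of Arsb gave 0.44, but on it the genotypes overlapped. The WT control read 10.44 there and the Trem2-/- arrays of 12 weeks 10.13 on cuprizone and 10.17 in recovery. Among 10 tested genes near Arsb on chromosome 13, 5 on each side and chosen after the values were seen, none passed. Cmya5 was at 0.73 (adjusted p = 0.0655, limma) and the others lay between -0.28 and 0.16. Genes without a test value are not among them.

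Galc was the lowest at -0.35 ± 0.09 (adjusted p = 0.204), lower in Trem2-/- in 5 of 5 conditions although the genotypes overlapped. Cln3 followed at -0.25 (adjusted p = 0.534) and Gaa at -0.23 (adjusted p = 0.659), each with the Trem2-/- array higher in 1 of 5 conditions. Cd63 at -0.21 was the third member with an unadjusted p below 0.05 (0.047), and its adjusted p was 0.458. Of the 31 genes 6 were lower in Trem2-/- in 5 of 5 conditions (19.4%, against 6.1% of all genes tested): Galc, Psap, the saposin precursor, Man2b1, an alpha-mannosidase, Lamp1, Cd63 and Cd68. The share higher in 5 of 5 was 3.23%, against 4.77%.

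On the higher side, after Arsb, stood Ctns, which exports cystine, at 0.18 and Npc1 at 0.13. Ctns read 7.78, 7.78, 7.70, 7.49 and 6.86 in WT and 7.75, 7.67, 7.74, 7.91 and 7.46 in Trem2-/-. The first 3 conditions were within 0.12 of each other, and the 2 conditions of 12 weeks were 0.42 and 0.60 higher in Trem2-/-. Its adjusted p was 0.638.

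Recovery was set against cuprizone and control in each genotype. In WT 24 of 31 estimates of recovery minus cuprizone were below 0 (median -0.12), none passed and 0% of all genes tested did; without the 4-week WT cuprizone array the median was 0.02. In Trem2-/- 14 were below 0 (median 0.00), none passed and 0% of all genes did. Against control, medians were -0.03 in WT and -0.06 in Trem2-/-, again with 0 of 31 and 0% of all genes passing in each; without the 4-week WT recovery array the WT median was -0.18. With the feeding-time block the medians against control were 0.08 in WT and 0.07 in Trem2-/-. Unadjusted p below 0.05 was reached by 295, 64, 242 and 151 of all genes tested in these 4 comparisons, and by 0, 0, 1 and 0 of the 31. Between genotypes in recovery the median was -0.04, and none of the 31 passed where 0.0278% of all genes did, with an unadjusted p below 0.05 for 1 of the 31 and 207 of all genes. Arsb, at 0.49 ± 0.17, was again the highest, and Smpd1, the acid sphingomyelinase, at -0.43 and Galc at -0.42 the lowest, each with an adjusted p of 1. With the block 0 of the 31 passed in these 5 comparisons or in the difference of responses, where 0.0649% (WT) and 0% (Trem2-/-) of all genes passed for recovery against cuprizone, 0.176% in each genotype for recovery against control, 0.0927% between genotypes in recovery and 0.0834% for the difference of responses.

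The arrays titled 12 weeks were compared with those titled 4 weeks over 8 arrays, with genotype and diet as a block. Of the 31 genes 1 was higher and 7 were lower at 12 weeks (limma, adjusted p below 0.05). In all genes tested 8.22% were called higher and 12.1% lower. After quantile normalization 2 of the 31 were higher and 4 lower, and 50.6% of the calls over all genes were higher, against 40.4% on the deposited scale. The median over the 31 was -0.25, with 26 below 0, against -0.04 for all genes tested, 44.9% of which were above 0. Gla was the gene that was higher; Gm2a, Lipa, Cln3, Hexa, Gusb, Smpd1 and Tpp1 were lower. Their probes were bright, with 21 of the 31 in the brightest of 4 equal groups of the genes tested, and in that group 18.1% of all genes were called lower, 12.5% higher, and the median was -0.07.

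Gla differed by 1.12 ± 0.13 (SE), adjusted p = 0.000971, higher in 4 of 4 matched pairs of arrays. Its 12-week arrays were all above its 4-week arrays, which was so for 9.49% of all genes tested and for no other member. Cd63 was also higher in 4 of 4 pairs, at 0.35 (adjusted p = 0.0503). These were the 2 members with that direction in every pair (6.45%, against 17.3% of all genes tested).

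Gm2a, the activator that presents gangliosides to hexosaminidase, read 9.53, 10.12, 9.77, 9.38 and 9.24 in WT and 9.74, 9.70, 9.82, 9.02 and 9.29 in Trem2-/-. All 4 arrays of 12 weeks were below all others, and the difference was -0.62 ± 0.11, adjusted p = 0.00494. Hexa, the alpha subunit of that hexosaminidase, read 10.63, 10.93, 10.95, 10.62 and 10.45 in WT and 10.71, 10.82, 10.90, 10.38 and 10.62 in Trem2-/-. Its 12-week arrays were below its 4-week arrays but the WT control stood beside them, and the difference was -0.38 ± 0.11, adjusted p = 0.0329.

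Lipa, the acid lipase that splits cholesteryl esters, read 8.34, 9.06, 8.63, 8.25 and 8.16 in WT and 8.37, 8.59, 8.44, 8.27 and 7.91 in Trem2-/-. The 12-week arrays were the 4 lowest, and the 4-week WT cuprizone array the highest. The difference was -0.53 ± 0.12, adjusted p = 0.0133. Cln3 differed by -0.46 ± 0.11 (adjusted p = 0.0192) and Gusb by -0.40 ± 0.11 (adjusted p = 0.033), both lower in 4 of 4 pairs with some overlap between the feeding times.

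Smpd1 read 7.35, 7.26, 7.62, 7.05 and 7.09 in WT and 7.36, 7.35, 7.24, 7.09 and 6.61 in Trem2-/-. Its lowest array was the Trem2-/- recovery after 12 weeks, and its 12-week arrays were below all others. The difference was -0.41 ± 0.12, adjusted p = 0.0381. Tpp1, a peptidase lost in a ceroid lipofuscinosis, read 9.87, 10.07, 10.08, 9.69 and 9.67 in WT and 9.77, 9.97, 10.02, 9.08 and 9.88 in Trem2-/-. The Trem2-/- cuprizone array of 12 weeks stood lowest, and the difference was -0.46 ± 0.14, adjusted p = 0.0415.

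Altogether 17 of the 31 genes were lower at 12 weeks in 4 of 4 pairs (54.8%, against 24.5% of all genes tested). The 12-week arrays lay wholly below the 4-week arrays for 11 genes, where they did for 14.1% of all genes tested: Hexa, Smpd1, Psap, Gm2a, Man2b1, Lipa, Tpp1, Ppt1, Grn, Scarb2 and Laptm5. The estimates of Arsb, Neu1, a sialidase, Lamp2 and Asah1 lay within 0.05 of 0. The second probe of Arsb was lower at 12 weeks in every matched pair. On cuprizone and in recovery it read 9.74 and 9.43 in WT, against 10.07 and 9.93 at 4 weeks. In Trem2-/- it read 10.13 and 10.17, against 10.55 and 10.40. Summed neutrophil and border macrophage markers were lower in every 12-week array than in every 4-week array, as given above. Monocyte markers, over 6 genes, summed to 249.4 to 415.7 in the first run and 147.1 to 189.1 in the second. Among them Plac8 and Chil3 were lower in every array of the second run, while Ccr2, Cd177, Vcan and F10 overlapped between the runs. Microglia markers summed to 23475.1 to 28629.9 in the 4-week arrays and 20740.5 to 23819.6 in the 12-week arrays. The part of any of these marker lists in the differences was not tested. With the Trem2-/- array titled 12 weeks counted as 4 weeks, 0 of the 31 passed, and leaving out any of the 8 fed arrays left 2 to 4, the fewest without either Trem2-/- recovery array. Gla and Gm2a passed in all 10 fits that leave out an array, Lipa in 6, and Cln3 and Gusb in 4 each. Hexa, Smpd1 and Tpp1 passed in only 2 of the 10 each. Control arrays are not part of this comparison, so the fits without them leave out none of its 8 arrays.

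**Figure D5:**
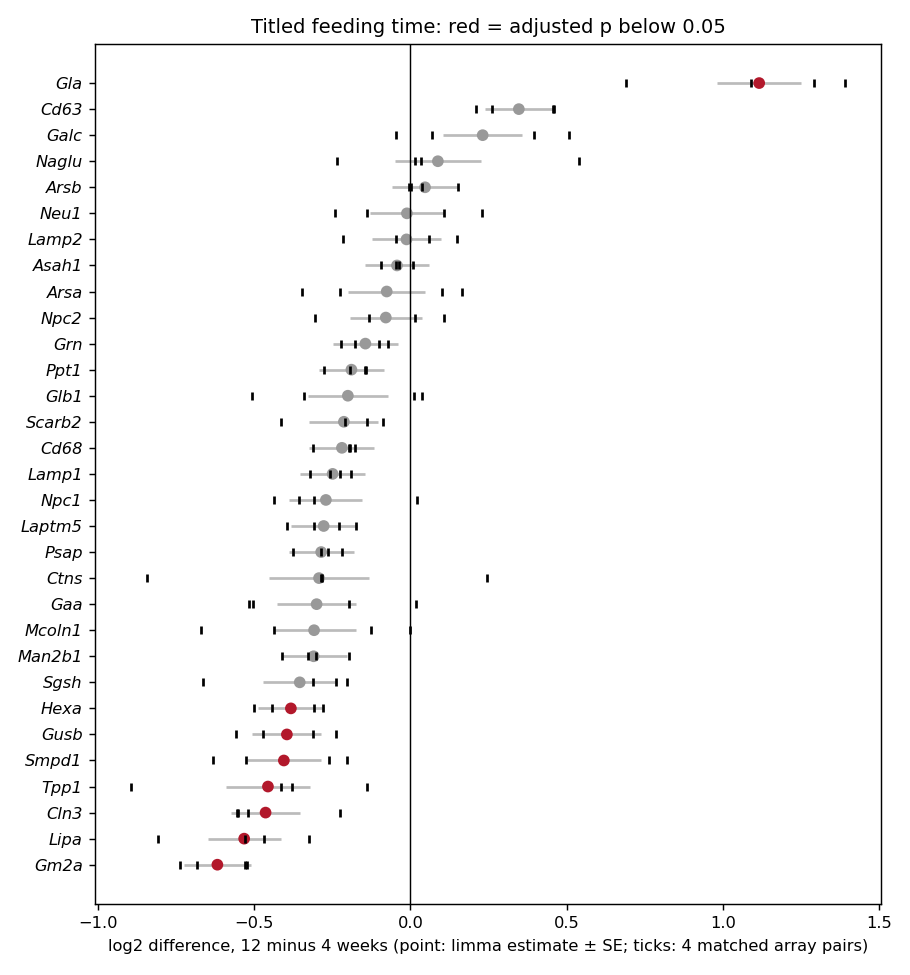
Points are limma estimates of 12 minus 4 weeks (log2) with bars of 1 SE for the 31 genes, red where the adjusted p is below 0.05, and black ticks are the 4 matched pairs of arrays. Gla stands at 1.12 and the 7 red genes on the left run from -0.62 (Gm2a) to -0.38 (Hexa).

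Other genes of the lysosome were taken from 3 lists: further hydrolases (24 tested of 35 listed), further membrane proteins and transporters (25 of 31), and proteins of enzyme sorting and maturation (17 of 19). On cuprizone in WT 0 of these 66 passed, with medians of 0.15, 0.07 and -0.01. The highest were Pld3, a lysosomal exonuclease, at 0.92 (adjusted p = 0.876), Tpcn2, an ion channel, at 0.65 (adjusted p = 0.998) and Gnptab, the enzyme that makes the mannose 6-phosphate sorting tag, at 0.86 (adjusted p = 0.803). Between genotypes on cuprizone 0 of the 66 passed (1, Pld3, with the feeding-time block, adjusted p = 0.0095), with medians of -0.17, -0.08 and -0.08; 21 of the 24 hydrolases were below 0. The lowest of each list were Pld3 at -1.11 (adjusted p = 0.218), Cd9, a tetraspanin, at -0.66 (adjusted p = 1) and Gnptab at -0.68 (adjusted p = 0.774).

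Between feeding times 4 of the 24 hydrolases passed, all lower: Plbd1 at -1.07, Pld4 at -0.77, Acp2, an acid phosphatase, at -0.73 and Man2b2 at -0.57. Of the 25 membrane proteins 7 were lower, Cd9, Slc15a4, Slc29a3, Slc36a1, Slc38a9, Cd81 and Slc37a2, from -0.68 to -0.36, and Slc15a3 was higher at 0.38. Of the 17 sorting genes 5 were lower, namely Gnptg, a subunit of the tagging enzyme, at -1.01, Hps3 at -0.50, Ap1b1 at -0.48, Ap3d1 at -0.44 and Sort1, a sorting receptor, at -0.37. The list medians were -0.15, -0.15 and -0.19, against -0.04 for all genes tested.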

How the data were processed

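The values deposited by the authors are intensity on a linear scale. The summarization, background correction and normalization of the probes are not stated by the labels or file headers. Log2 was taken with no offset. Of 24567 probes, 21259 named a single gene in the platform's annotation, and the brightest probe stood for each of 19749 genes. Genes with at least 2 arrays above the table's median (5.27 on the log2 scale) were tested, which left 10792. Differences were fitted with limma 3.58.1 (R 4.3.3, lmFit and eBayes) in a model of 6 groups of genotype and diet (4 residual degrees of freedom), genotype over 5 conditions (4) and 12 against 4 weeks over 8 arrays (3), 11 comparisons in all, with Benjamini-Hochberg adjustment over all genes tested and a threshold of 0.05. The scripts were tested on simulated data. The number of arrays limits the precision. Alternatives were a feeding-time block, another label for the Trem2-/- array titled 12 weeks, array medians subtracted, quantile normalization, an offset of 16, no or a stricter filter, means over probes and each array left out.

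The 31 genes and all lists were chosen with earlier results of these data known. Values in every array are given for genes that passed a test and for the 3 highest and 3 lowest differences of WT cuprizone against control and of Trem2-/- against WT, on cuprizone and over the 5 conditions. Promoter sequences are RefSeq's (GRCm38.p6), searched on both strands.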

Additional observations from a re-analysis of the deposited data

Results flagged for a closer look

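For 4 genes both WT cuprizone arrays moved one way from the control and both Trem2-/- arrays the other. The share of all genes tested with this pattern was not counted, so the 4 cannot be read as a trait of the lysosomal genes. The Trem2-/- minus WT difference in response was -0.56 for Gaa, -0.53 for Cln3, -0.40 for Naglu, which acts on heparan sulfate, and 0.35 for Arsb. For Arsb the moves in Trem2-/- were only 0.06 and 0.05, and its second probe did not show the pattern. There both Trem2-/- cuprizone arrays (10.55 and 10.13) were below their control (10.57), as both WT arrays were below theirs. The test of the difference itself gave each an adjusted p of 1 (limma).

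For 6 genes recovery minus cuprizone, at matched feeding time, had one sign in both WT pairs and the other in both Trem2-/- pairs. How many of all genes tested do so was not counted, so the 6 cannot be called unusual. Trem2-/- minus WT was 0.84 for Gaa, 0.61 for Cln3, 0.44 for Gm2a, 0.38 for Gla, 0.15 for Asah1 and -0.49 for Smpd1. These differences were not tested. For Asah1 recovery minus cuprizone in Trem2-/- was only 0.0076 at 4 weeks and 0.0156 at 12 weeks. The same cuprizone arrays enter both sets of values for Gaa and Cln3.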

How the results depend on the processing

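The count of the 31 genes called between 12 and 4 weeks was 8; it was 0 with the Trem2-/- array titled 12 weeks counted as 4 weeks and 5 with no filter on low signal, where more genes were tested. Leaving out each array in turn gave 2 to 9. Over the same fits the median of the 31 genes ran from -0.0916 to 0.20 for WT cuprizone against control, from -0.29 to -0.0335 for Trem2-/- against WT on cuprizone from -0.18 to 0.0562 for WT recovery against control, from -0.20 to 0.02 for WT recovery against cuprizone and from -0.28 to -0.03 for the difference of responses; it also took both signs for Trem2-/- cuprizone against control (-0.10 to 0.07), Trem2-/- recovery against cuprizone (-0.11 to 0.10), Trem2-/- recovery against control (-0.14 to 0.08) and Trem2-/- against WT in recovery (-0.14 to 0.04); a fit without a control array gives no value against that control. Hexa, Smpd1 and Tpp1 missed the threshold under quantile normalization and without the filter, and Cd63 passed under quantile normalization (0.47, adjusted p = 0.0186). Quantile normalization moved the median between feeding times from -0.25 to -0.16. The replicate numbers here only name arrays, so no pairing follows from them; the fit with feeding time as a replicate block called 0 of the 31 in the 9 comparisons it was run on (not genotype over 5 conditions or 12 against 4 weeks), with a median of 0.19 for WT cuprizone against control. Among single genes, 97 values under the other alternatives kept their direction and side of the threshold, 14 fell short of it and 4 moved past it; no named value reversed. With 1 control array per genotype and 3 or 4 residual degrees of freedom, small differences could not be resolved.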
